A study of Mus musculus with 18 samples.

Results

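Slow-pattern electrical stimulation was compared with no stimulation in cultured mouse muscle fibers that had received KN92, the inactive analog of the kinase inhibitor KN93. The comparison was chosen by the sample titles: the 3 arrays titled as electrically stimulated with KN92 and the 3 titled as treated with KN92 alone, 6 of the 17 arrays of the series. All 22 features of the array were described, each spotted 6 times. No feature of the 22 passed the test for a difference between stimulated and unstimulated fibers. The largest differences in the log2 ratio of sample signal over reference signal were in features 8 and 9. The ratio of feature 8 was higher on all 3 stimulated arrays, by 0.52 (SE 0.23), and that of feature 9 differed by -0.38 (SE 0.15). With each signal read alone, feature 8 differed by -0.12 (SE 0.37) in the sample and by -0.78 (SE 0.44) in the reference. The place of feature 9 depended on the scaling: with each array centred on its median its difference was -0.19, smaller in size than those of 8 other features besides feature 8, while feature 8 was the highest at 0.63.

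The fibers came from CD-1 mice aged 4 to 5 weeks and from FDB muscle (flexor digitorum brevis), which flexes the toes. The muscle was dissociated into single fibers, which were cultured to day 3 in MEM with 10% FBS and 50 ug/ml gentamicin sulfate at 37 °C and 5% CO2. Both groups carried KN92, and the stimulated group also received electrical stimulation in a slow-fiber pattern. The series further holds fibers with KN93 and KN62, 2 compounds that block calcium/calmodulin-dependent kinases (CaMK), with and without the same stimulation. Doses, pulse settings, the length of stimulation and the number of mice per sample are not stated in the labels. Each RNA sample pooled more than 100 fibers and was amplified before labelling, so a value is a mean over many fibers. Fewer fibers of a type and less RNA per fiber cannot be told apart in such pools. The series calls its replicates independent experiments.

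Skeletal muscle fibers take on slow or fast properties largely through the pattern of motor nerve firing, and steady low-frequency activity favours the slow program. The calcium signal of that activity reaches genes through at least calcineurin, which dephosphorylates NFAT factors so that they enter the nucleus, and the CaMK enzymes, which phosphorylate class II histone deacetylases and so release MEF2 factors from repression. The mouse FDB is made up mostly of fast fibers, which makes it a common system for driving fibers toward the slow type. KN93 keeps calmodulin from activating CaMK enzymes, and KN92 is used beside it because it shares much of its structure but does not block these kinases. The stimulated and unstimulated KN92 arrays are therefore the stimulation experiment in which the kinases were left uninhibited.

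Each sample was labelled with Cy3 and hybridised with a Cy5-labelled reference sample on the same array, and the dyes were not swapped. The main value, called the log2 ratio here, is log2 of Cy3 over Cy5, with sample over reference as the direction. The scanner files leave the gene entry blank and the deposited table only numbers its rows, so the files do not pair any feature with a gene. Features are numbered from 1 to 22 in the order of the deposited table, 6 consecutive rows each. The lists of slow fiber, fast fiber, CaMK and calcineurin pathway genes and of markers of other cell types matched 0 features, so the fiber identity of the samples was not checked against its markers.

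Some of the 6 arrays stood apart in ways that touch the results. Across the 22 features, the Cy5 reference signals of stimulated replicates 1 and 2 correlated with each other at 0.995. Each correlated with the other 4 KN92 arrays at only 0.939 to 0.958, whereas those 4 correlated with each other at 0.972 to 0.991. The same 2 arrays correlated at 0.969 to 0.983 with 4 arrays of the inhibitor groups, picked as the closest matches. The 4 were stimulated KN93 replicate 1, unstimulated KN93 replicate 2 and both KN62 replicates numbered 2. With the remaining inhibitor arrays the same 2 arrays correlated at 0.888 to 0.957. Unstimulated KN62 replicate 2 also correlated at 0.963 to 0.983 with the other 4 KN92 arrays. All these correlations are descriptions over 22 features that share arrays and labelling. The median Cy3 background of stimulated replicates 1 and 2 was 800.0 and 997 units, against 295.8 to 498 on the other 4 arrays. In the Cy5 channel it was 699 and 832 units, against 328 to 489. The part of these differences in the results was not tested, and values without both arrays are given beside the named features. Per the scanner headers, the images of unstimulated replicate 1 and stimulated replicates 1 and 2 were filed in 1 folder, those of both arrays of experiment 3 in another, and those of unstimulated replicate 2 in a folder without other KN92 arrays. The labels of unstimulated replicate 3 conflict: its treatment text names the stimulated state, but it was grouped by its title and source name, which name the unstimulated one.

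Signal strength separated features that could be compared from those that could not. The median Cy3 signal of the KN92 arrays lay between 1459 and 2604 units, and 91 to 113 of the 132 spots in features were above the local background. A feature was taken as above background on an array if at least 4 of its 6 spots were. By this count 14 features were above background on all 6 arrays, 6 on some of them, and features 3 and 13 on none. A feature was called measured when it was above background on at least 2 of the 3 arrays of each group, which held for 15 features: the 14 above and feature 21, dim on stimulated replicate 1.

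**Figure D1:**
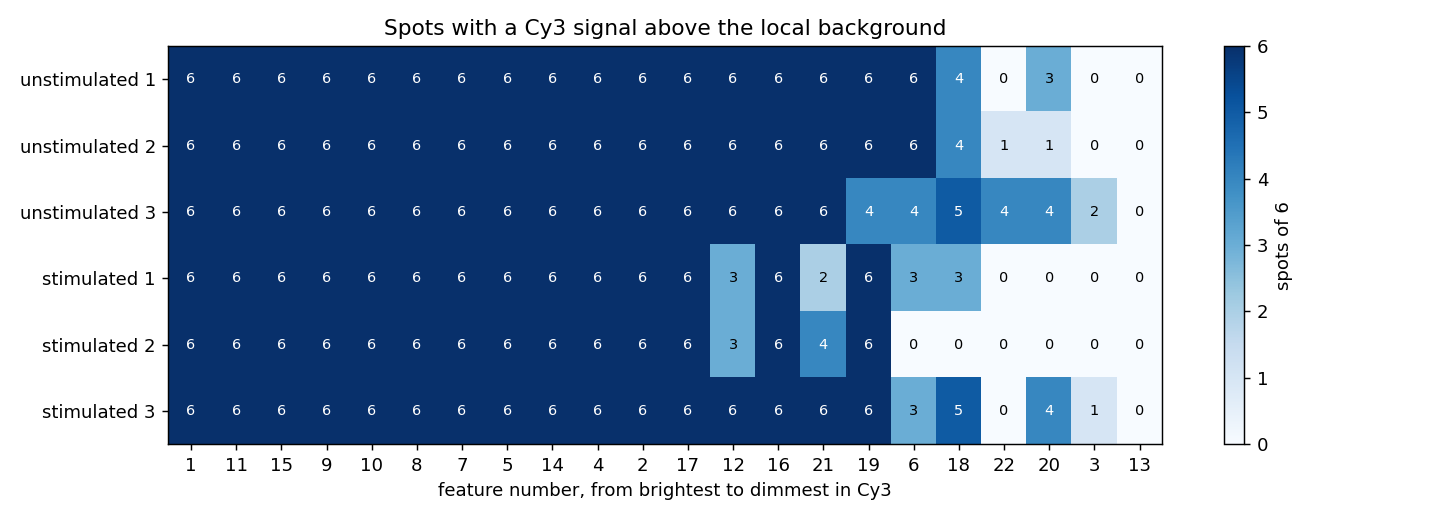
Number of the 6 spots of each feature with a Cy3 signal above the local background, for the 6 KN92 arrays in rows and the 22 features in columns, ordered from the brightest to the dimmest mean Cy3 level. The left columns are filled with 6 on all arrays, feature 13 has 0 on all, and features 12 and 21 have fewer spots above background on stimulated replicates 1 and 2 than on the unstimulated arrays.

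Feature 6 was above background on 3 of 3 unstimulated arrays, with 6, 6 and 4 spots, and on 0 of 3 stimulated arrays, with 3, 0 and 3 spots. Its log2 ratio was 0.87, 0.46 and -0.15 without stimulation and 0.01, 0.11 and 0.28 with it. These groups overlapped, and the fitted difference was -0.26 (SE 0.61). In the authors' deposited ratios, centred here on the median of each column, feature 6 had log2 values of 3.82, 2.80 and -1.11 on the unstimulated arrays and empty cells on all 3 stimulated arrays. Feature 12 was above background on 3 of 3 unstimulated arrays and on 1 of 3 stimulated arrays, with 3 of 6 spots on each of stimulated replicates 1 and 2. Feature 18 followed the same count, 3 of 3 and 1 of 3 arrays. On stimulated replicate 3, features 12 and 18 had 6 and 5 spots above background. Stimulated replicates 1 and 2 also had fewer features above background in all, 14 and 15. Unstimulated replicates 1, 2 and 3 had 18, 18 and 20, and stimulated replicate 3 had 18. The part of the higher local background of stimulated replicates 1 and 2 in these counts was not tested. The brightest feature, feature 1, had spots at or above 65000 units in either channel. There were 6, 6 and 2 on stimulated replicates 1, 2 and 3, and 0 on the unstimulated arrays. Its median Cy3 signal was 65535 units on stimulated replicates 1 and 2, so its sample level there is bounded by the scanner. On stimulated replicate 3 the median was 44056 units, and the channel of its 2 saturated spots was not separated.

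On the log2 ratio, limma called 0 of 22 features (0%) at an adjusted p of 0.05, and 2 features had an unadjusted p below 0.05. Differences between stimulated and unstimulated means ranged from -0.38 to 0.52, with a median absolute size of 0.089, and 11 features lay on each side of 0. The 2 groups did not overlap for 4 features (18.2%), of which features 8 and 10 were higher (9.09%) and features 9 and 12 lower (9.09%) with stimulation. Feature 12 was not among the measured features. For these 4 non-overlapping features the two-sided exact permutation test gave p = 0.10, the smallest that 3 arrays against 3 allow. It is also the probability, for each feature, of groups that do not overlap when no difference exists. After loess, the 2 measured features with the highest differences were 8 and 10, and those with the lowest were 9 and 14. With each array centred on its median in place of loess, the differences spread more widely, from -0.53 (feature 14) to 0.63 (feature 8). Feature 4 then stood at -0.53 and feature 6 at -0.50.

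Feature 8 had log2 ratios of -0.17, -0.30 and -0.58 on the unstimulated arrays and 0.21, 0.13 and 0.18 on the stimulated arrays. All stimulated values lay above 0 and all unstimulated values below it, with 0 set by the loess fit to the feature spots of each array. The difference was 0.52 (SE 0.23, 95% interval 0.02 to 1.02, limma adjusted p = 0.47). Without stimulated replicates 1 and 2 it was 0.53 (limma adjusted p = 0.61), a value that rests on 1 stimulated array whose spread is assumed to be that of the other groups. With ratios centred on the array median in place of loess, feature 8 was also the 1 feature whose groups did not overlap, at -0.19, -0.38 and -0.74 against 0.13, -0.09 and 0.54. In the authors' deposited ratios, centred likewise, its values were -0.28, 0.12 and -0.78 against 0.03, -0.09 and 0.32, and the groups overlapped.

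Feature 10 had log2 ratios of 0.12, -0.28 and -0.06 without stimulation and 0.14, 0.39 and 0.25 with it. Stimulated replicate 1 lay just above unstimulated replicate 1, and the other values were further apart. Its difference was 0.33 (SE 0.19, limma adjusted p = 0.72), and 0.32 without stimulated replicates 1 and 2.

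Feature 9 ran the other way, with log2 ratios of -0.06, 0.17 and 0.26 on the unstimulated arrays and -0.37, -0.12 and -0.29 on the stimulated arrays. The highest stimulated value lay below the lowest unstimulated value. The difference was -0.38 (SE 0.15, 95% interval -0.71 to -0.05, limma adjusted p = 0.47), and -0.41 without stimulated replicates 1 and 2. With median centring it was -0.19 and the groups overlapped.

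Feature 14 had log2 ratios of -0.63, 0.25 and 0.01 without stimulation and -0.48, -0.63 and -0.29 with it. The unstimulated arrays spread over a wider range than the stimulated ones, and unstimulated replicate 1 lay among the stimulated values. Its difference was -0.34 (SE 0.25, limma adjusted p = 0.73), and -0.16 without stimulated replicates 1 and 2. Feature 12, not above background on most stimulated arrays, had log2 ratios of -0.07, 0.02 and 0.01 against -0.65, -0.19 and -0.25. Its difference was -0.35 (SE 0.26), and -0.23 without stimulated replicates 1 and 2, and its lowest value came from an array on which 3 of its 6 spots were above background.

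**Figure D2:**
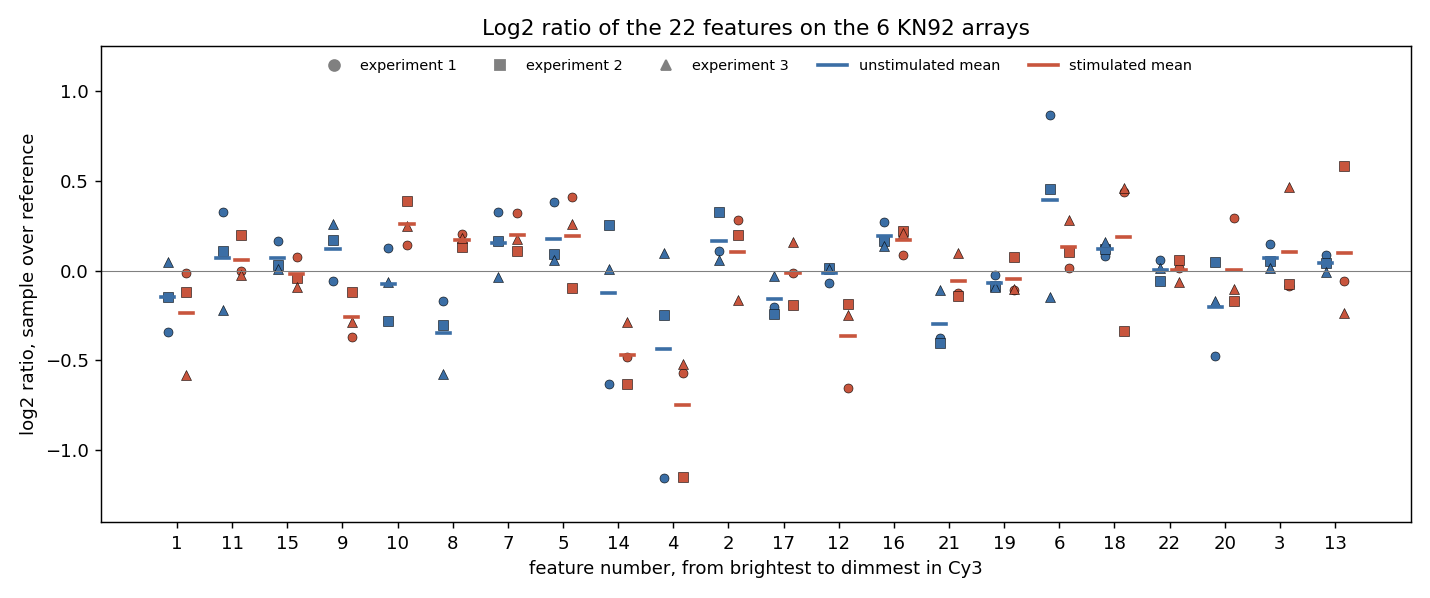
Log2 ratio of sample over reference (vertical axis) for the 22 features on the 6 KN92 arrays, ordered from the brightest to the dimmest in Cy3, with one point per array, marker shape for the experiment and a bar for the mean of each group. Features 8 and 10 have all stimulated points above the unstimulated ones, features 9 and 12 have them below, and the points of the other 18 features overlap.

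Of the other bright features, feature 7 differed by 0.05 (SE 0.25), feature 11 by -0.01 (SE 0.19), feature 15 by -0.09 (SE 0.15) and feature 5 by 0.01 (SE 0.21). With median centring these differences were -0.07, 0.13, 0.08 and -0.19, each opposite in sign. Feature 1, with saturated spots on all 3 stimulated arrays, differed by -0.09 (SE 0.17), by 0.24 with saturated spots left out and by -0.43 without stimulated replicates 1 and 2, so its direction was not settled. Feature 4 was the most variable, with log2 ratios of -1.15, -0.24 and 0.10 without stimulation and -0.57, -1.15 and -0.52 with it. Its groups overlapped, and the difference of -0.31 had an SE of 0.41 and was -0.09 without stimulated replicates 1 and 2. Feature 2 differed by -0.06, with an SE of 0.79 from the spread pooled over all 6 groups of the series. Its SD between KN92 arrays was 0.14 without and 0.24 with stimulation.

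Features 16 and 19 differed by -0.02 (SE 0.15) and 0.02 (SE 0.10), and feature 19 had the narrowest interval of the 22, -0.18 to 0.23. Feature 21 had log2 ratios of -0.37, -0.40 and -0.11 against -0.13, -0.14 and 0.10. The stimulated values were mostly the higher ones, with overlap through unstimulated replicate 3, and the difference was 0.24 (SE 0.15, limma adjusted p = 0.73). Feature 17 differed by 0.14 (SE 0.14). Features 3, 13, 20 and 22, at or near background, differed by 0.03, 0.06, 0.21 and -0.003, and feature 18 by 0.07. Without stimulated replicates 1 and 2, features 3 and 13 stood at 0.39 and -0.28, features 17 and 21 at 0.32 and 0.39, and feature 18 at 0.34.

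The intervals show how closely each difference was estimated, with the spread pooled over all 6 groups of the series. The 95% interval of the difference reached a median of 0.43 to either side of the estimate, with a range of 0.20 to 1.70 (feature 2) over features. It lay within 1 log2 unit of 0 for 18 of the 22 features and for 12 of the 15 measured ones. For a feature with the median interval, an observed difference under 0.43 could not be told from 0 even before adjustment. A true difference above that size could also have been missed. With only the 6 KN92 arrays in the fit, limma called 0 of 22 features, and 4 had an unadjusted p below 0.05. Spots of a feature on 1 array had a median SD of 0.13, and arrays of a group a median SD of 0.19, which was the greater of the pair for 15 of 22 features.

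The 2 channels were also read alone, each quantile-normalized between arrays, so that the sample RNA could be seen without the reference. In the sample channel, limma called 0 of 22 features (0%), and 1 had an unadjusted p below 0.05. That feature was feature 7, with log2 Cy3 levels of 12.57, 12.89 and 12.35 on the unstimulated arrays and 13.84, 14.09 and 12.77 on the stimulated arrays. Stimulated replicates 1 and 2 were above all unstimulated arrays, and stimulated replicate 3 lay among them. Its difference was 0.96 (SE 0.44, limma adjusted p = 0.56), next to a difference of 0.91 (SE 0.69) in the reference channel and 0.05 in the log2 ratio. With median centring in place of quantile normalization the 2 channel differences were 0.50 and 0.40, and 0 features had an unadjusted p below 0.05 in the sample channel. Without stimulated replicates 1 and 2 they were 0.16 and 0.11 on the quantile scale.

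Feature 19 was next highest in the sample channel, with log2 Cy3 levels of 9.28, 9.37 and 9.16 against 10.07, 10.14 and 9.48. Its groups did not overlap, and the difference was 0.63 (SE 0.31, limma adjusted p = 0.56). The reference channel of this feature did not overlap either, at 9.02, 9.21 and 9.03 against 9.80, 9.78 and 9.26. In both channels stimulated replicates 1 and 2 were the highest and stimulated replicate 3 lay closer to the unstimulated arrays. Without the 2 former the differences were 0.21 and 0.18. Groups in the sample channel did not overlap for 2 of 22 features (9.09%), feature 19 and, in the lower direction, feature 12. In the reference channel feature 19 was the 1 such feature (4.55%).

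The lowest measured differences of the sample channel were in features 9 and 10. Feature 9 had log2 Cy3 levels of 13.28, 14.08 and 13.78 against 12.92, 13.46 and 13.27, a difference of -0.50 (SE 0.29). Its sample level was lower in each experiment, and the difference was -0.45 without stimulated replicates 1 and 2. The reference difference of feature 9 depended on the scaling: it was -0.02 (SE 0.33) after quantile normalization and -0.64 after median centring, beside a median-centred sample difference of -0.66. Feature 10 had log2 Cy3 levels of 13.84, 13.45 and 13.48 against 12.55, 13.21 and 13.70. Its difference of -0.44 (SE 0.35) was opposite in sign to its log2 ratio, and stimulated replicate 3 was above 2 of the unstimulated arrays. Without stimulated replicates 1 and 2 it was 0.11.

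In the reference channel, for which the labels give a reference sample on every array, limma also called 0 of 22 features (0%), with 1 unadjusted p below 0.05. Feature 10 had log2 Cy5 levels of 13.57, 13.30 and 13.22 on the unstimulated arrays and 11.87, 12.003 and 13.29 on the stimulated arrays. Stimulated replicates 1 and 2 were far below the others, and stimulated replicate 3 was among them. The difference was -0.97 (SE 0.40, limma adjusted p = 0.57), and -0.07 without stimulated replicates 1 and 2. Feature 8 showed the same arrangement, with log2 Cy5 levels of 13.18, 13.04 and 13.47 against 12.07, 12.10 and 13.19, a difference of -0.78 (SE 0.44), and of -0.04 without those 2 arrays. Its sample levels were 13.16, 13.21 and 13.24 against 12.79, 12.93 and 13.54, a difference of -0.12 (SE 0.37), and of 0.33 without them. The higher log2 ratio of feature 8 on stimulated replicates 1 and 2 thus stood beside lower levels in both channels, more so in the reference. Feature 4 was high in the reference on the same 2 arrays, at 13.62 and 13.20 against 12.05 to 12.66 on the other 4, and its difference was 0.77 (SE 0.55), against 0.12 without them. Without stimulated replicates 1 and 2, limma called 0 features in either channel, with 1 unadjusted p below 0.05 in each.

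**Figure D3:**
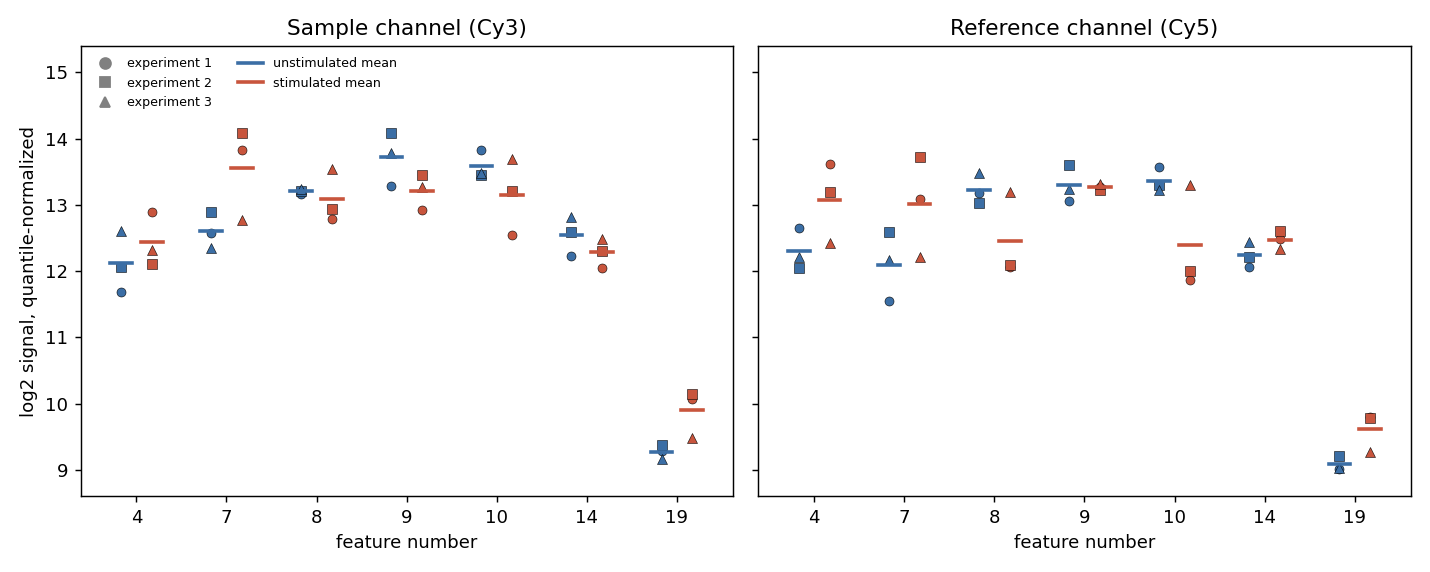
Quantile-normalized log2 signal of the sample channel (left) and the reference channel (right) for features 4, 7, 8, 9, 10, 14 and 19 on the 6 KN92 arrays, with one point per array, marker shape for the experiment and a bar for the mean of each group. In the reference channel the stimulated points of experiments 1 and 2 sit apart from the other 4 for some features. They are low for features 8 and 10 and high for features 4, 7 and 19. The stimulated point of experiment 3 lies with or near the unstimulated ones for these features.

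Across the 22 features, the differences of the 2 channels, each centred on the array median, correlated at 0.82. These are 22 features that share arrays, and the value is a description. The absolute reference difference exceeded the sample difference for 9 of 22 features. The log2 ratio and the sample channel alone differed in sign for 8 of 22, and loess and median centring of the ratio for 10 of 22.

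The experiment numbers of the titles allowed each stimulated array to be set beside the unstimulated array of the same experiment. The title of unstimulated replicate 2 also assigns it to another comparison of the series, KN93 against KN92 without stimulation. All 3 experiments gave a higher log2 ratio with stimulation for features 8, 10, 17 and 21, and a lower one for features 9, 12 and 15, and the remaining 15 features were mixed. With median centring, features 8, 17 and 21 were higher and feature 12 lower in all 3, as was feature 6, while features 9, 10 and 15 became mixed. With 3 pairs an exact paired test cannot go below p = 0.25. Feature 8 was higher by 0.38, 0.43 and 0.76 in experiments 1, 2 and 3. Feature 9 gave differences of -0.31, -0.29 and -0.55, and feature 21 gave 0.25, 0.26 and 0.21. The values of feature 21 were the closest together of these 3, whereas feature 10 ranged from 0.02 in experiment 1 to 0.67 in experiment 2. With median centring, feature 9 gave -0.40, -0.21 and 0.02, and feature 10 gave -0.09, 0.60 and 0.79. Feature 15 differed by -0.09, -0.07 and -0.10 after loess and by -0.06, 0.04 and 0.25 after median centring, so neither its sign nor its evenness held under both. Features 4, 14 and 6 had opposite signs in different experiments. Feature 4 differed by 0.59, -0.90 and -0.62, feature 14 by 0.15, -0.89 and -0.30, and feature 6 by -0.86, -0.35 and 0.43.

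**Figure D4:**
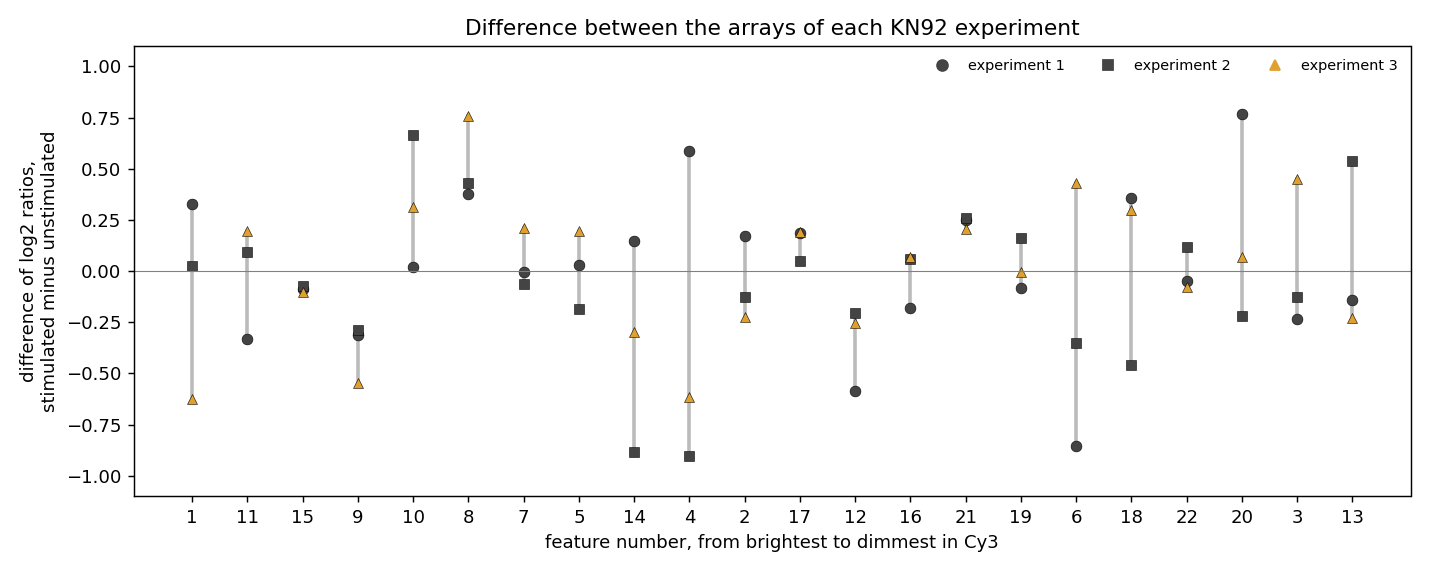
Difference of log2 ratios, stimulated minus unstimulated array of the same experiment (vertical axis), for the 22 features ordered from the brightest to the dimmest in Cy3, with marker shape for the experiment and a grey line from the lowest to the highest. Features 8, 10, 17 and 21 lie above 0 in all 3 experiments and features 9, 12 and 15 below it, and the other 15 span 0. These are loess-normalized values; with median centring features 9, 10 and 15 span 0 as well.

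The 3 experiments were of similar overall size, with SDs of the 22 differences of 0.37, 0.39 and 0.36, and 11, 10 and 12 features up. Correlations of the differences between experiments were -0.11 (experiments 1 and 2), -0.11 (1 and 3) and 0.40 (2 and 3), as descriptions over 22 features. In the channels alone, the sample and reference differences within an experiment correlated at 0.89 in experiment 1, 0.72 in experiment 2 and 0.16 in experiment 3. The reference channels of the 2 arrays of an experiment matched most closely in experiment 3, at 0.991 across features, against 0.945 in experiment 1 and 0.958 in experiment 2. In it, feature 8 had a sample difference of 0.23 and a reference difference of -1.12, both centred. Over the 3 experiments its reference difference was -1.06, -1.25 and -1.12 when centred and -1.11, -0.94 and -0.28 after quantile normalization, so the size in experiment 3 depended on the scaling. Its centred sample difference was -0.16, -1.11 and 0.23. Feature 9 had centred sample differences of -0.15, -1.29 and -0.54. Its reference differences were -0.34, -0.94 and -0.63 when centred and 0.21, -0.36 and 0.08 after quantile normalization.

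**Figure D5:**
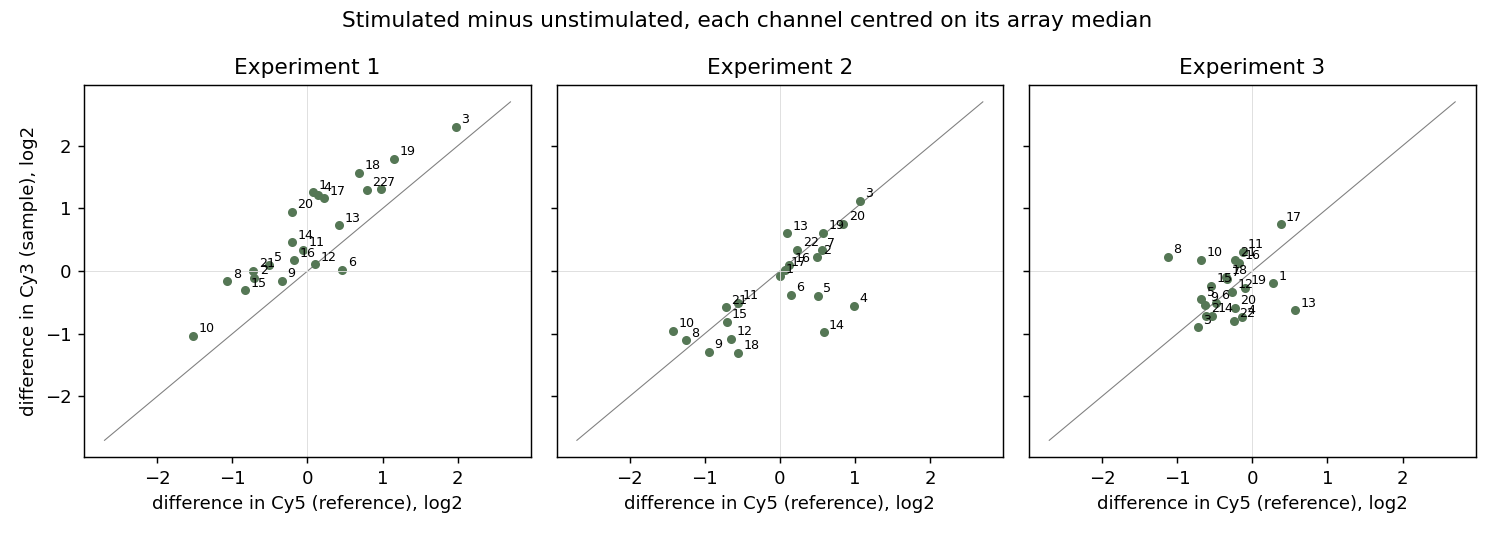
Stimulated minus unstimulated difference of the sample channel (vertical axis) against that of the reference channel (horizontal axis), each centred on its array median in log2, for the 22 features (numbered points) in each of the 3 experiments, with the line of equal difference. In experiments 1 and 2 the sample and reference differences rise together (correlations 0.89 and 0.72), with features 8 and 10 at the low end of the reference axis. Most points of experiment 1 lie above the line. In experiment 3 the correlation is 0.16, and feature 8 is again at the low end of the reference axis.

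The stimulation difference with KN92 was also tested against the mean of the stimulation differences with KN93 and KN62, in the same fit. limma called 0 of 22 features (0%), and 0 had an unadjusted p below 0.05. The doses are not given, so it is not known whether they matched. The highest measured contrasts were in feature 7, at 0.41 (95% interval -0.25 to 1.08), and feature 21, at 0.26 (-0.15 to 0.66). The lowest were in feature 15, at -0.31 (-0.73 to 0.10), and feature 2, at -0.25 (-2.38 to 1.88). Without stimulated KN92 replicates 1 and 2, limma called 0 features and 2 had an unadjusted p below 0.05, features 1 and 3. The contrasts of features 7, 21, 15 and 2 were then 0.39, 0.41, -0.38 and -0.52. Feature 8 differed between stimulated and unstimulated arrays by 0.52 with KN92, 0.45 with KN93 and 0.14 with KN62, and feature 9 by -0.38, -0.55 and -0.15. Their contrasts were 0.23 (-0.40 to 0.85) and -0.03 (-0.45 to 0.38). Feature 10 gave 0.33, 0.19 and 0.20, and feature 14 gave -0.34, -0.12 and -0.53. These 4 features, picked by their KN92 differences, had the same sign with all 3 compounds. So did features 11 and 17, with smaller KN92 differences, and the rest of the 22 were mixed. With KN93 only 2 stimulated arrays were available. Their log2 ratios of feature 8 were -0.02 and 0.71, against -0.20, -0.17 and 0.05 on the unstimulated KN93 arrays. For feature 9 the values were -0.26 and -0.09 against 0.42, 0.14 and 0.56. The intervals leave room for differences between compounds in either direction.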

How the data were processed

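Per the file headers, the scanner files hold spot intensity, a signal and a local background median for each of 144 spots, from quantification software version 5.5. The authors deposited a table of linear ratios, sample over reference, for the 132 spots in features. A column of it outside the KN92 groups also holds negative values. Per the labels, Cy3 held the sample and Cy5 the reference. Deposited KN92 ratios followed their own scans with median absolute log2 differences of 0.035 to 0.090; normalization by the authors beyond a factor per array is not given in the sources used here.

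Analysis used limma 3.58.1 (R 4.3.3). Backgrounds were corrected by normexp with an offset of 50, and loess (span 0.3, 4 iterations) normalized the log2 ratios within arrays, with weight 0 on the 12 spots outside features. A feature's value is the mean of its 6 spots. The channels alone were quantile-normalized. One model with 6 group means was fitted to 17 arrays (lmFit, eBayes), since scans of stimulated KN93 replicates 1 and 2 are of 1 array. Benjamini-Hochberg adjustment covered all 22 features, threshold 0.05. Their precision is limited by the number of arrays. Named with full values were features past the threshold or, with none, the 2 highest and 2 lowest differences among measured features, for the log2 ratio, each channel and the contrast with the inhibitors; feature 12 and other features were chosen after their values were seen. The members, lists and tests were chosen with earlier results of these data known. Alternatives covered background correction, normalization, spots used, blocks, the deposited ratios and leaving out arrays. Figures were drawn with matplotlib 3.10.9 under Python 3.11.15.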

Additional observations from a re-analysis of the deposited data

Results flagged for a closer look

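Outside the 22 features, 3 neighbouring spots of the array that are not in the deposited table gave a signal above that of the unstimulated arrays. Their mean Cy3 signal above background was 1409, 1367 and 1709 units on the stimulated KN92 arrays and 433, 1043 and 1121 units on the unstimulated ones, so the lowest stimulated array lay above the highest unstimulated one. The spots were picked after their values were seen, and the signals are not normalized. Relative to the median of the feature spots of each array, log2 Cy3 was 0.30, -0.10 and 0.48 with stimulation and -1.54, -0.47 and -0.07 without, and the groups overlapped. The log2 ratio of these spots was 0.19, -0.04 and 0.08 against -0.39, -0.08 and 0.02. What they carry is not named in the files.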

How the results depend on the processing

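The log2 ratio gave 0 called features under 27 of 28 alternatives, 2 of which leave out the same array. The exception was a replicate block with KN93 experiments 1 and 2 as 1 block, chosen after seeing the data, which called 1 feature, feature 8 (0.52, limma adjusted p = 0.045). With the plain replicate block, feature 8 had an adjusted p of 0.084 and 0 features were called. Deviations of same-numbered KN92 arrays from their group means correlated at -0.31, -0.20 and 0.13. For differently numbered arrays the range was -0.27 to 0.31. With 3 arrays in a group these deviations depend on each other, so the values cannot decide whether the replicate numbers pair the arrays. The reference channel gave 2 called features (8 and 10) with a replicate block and median centring, also chosen after seeing the data, and 0 to 1 when 1 KN92 array was left out, the 1 being feature 10 without stimulated replicate 3; the sample channel and the contrast with the inhibitors gave 0 under all 13 and 11 alternatives. The cause of these moves was not tested. Features 8, 10, 9 and 14 kept their direction under all 28 alternatives, with ranges of 0.40 to 0.68, 0.17 to 0.49, -0.47 to -0.14 and -0.60 to -0.07. These 4 were picked by size from the same data, and the alternatives refit the same arrays or subsets of them. Their kept direction is therefore no separate support. In the sample channel alone they differed by -0.12, -0.44, -0.50 and -0.26, so features 8 and 10 had the opposite sign there. The log2 ratio difference of feature 14 was -0.60 without unstimulated replicate 1, -0.16 without unstimulated replicate 2 and -0.09 when blocked by image folder. Leaving out unstimulated replicate 3, whose treatment text conflicts with its title, gave 0.41 for feature 8 and -0.31 for feature 9. Of the other 18 features, 4, 6, 12, 17, 20 and 21 kept their sign wherever they had a value.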
